A study of Mus musculus with 2 samples.

Results

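The genes described here are 48 genes of cell division: 27 that act in mitosis, 16 that act in DNA replication and 5 regulators of entry into S phase. They were taken by gene name, and no measured value is part of the rule, although the list was drawn up with earlier results of these data known. Each of the 48 has a row among the 31784 gene rows of the series. Pituitary RNA of mice homozygous for the Brdt tm1a knockout-first allele was compared with pituitary RNA of wild-type mice on 2 two-colour arrays. Mice of both genotypes were on a C57BL/6 background and 8 weeks old; the labels call the wild-type mice male and give no sex for the knockouts. The allele carries an IRES-lacZ trap and a floxed neo cassette with its own promoter in the fourth intron of Brdt, which encodes a bromodomain protein best known from male germ cells. Each array set 1 pool of 3 Brdt-/- mice against 1 pool of 3 wild-type mice, so the pool is the replicate (n = 2) and differences between single mice are not visible.

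Dividing cells copy their DNA once and then separate it once per cycle, and these phases use different gene sets. Cyclin-dependent kinases and the transcription factor E2F1 switch on replication genes as cells enter S phase, and a later wave, driven by FOXM1 and the B-MYB complex, switches on mitotic genes such as Cdk1, Aurkb and Kif11. In the adult pituitary few cells divide, and transcripts of mitotic genes come mainly from a small cycling fraction. The ratios given here do not show which cells the transcripts came from. In bulk tissue, fewer cycling cells and less RNA per cycling cell cannot be told apart.

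All values are log2 ratios, Brdt-/- over wild type, and the value of array 1 precedes that of array 2. The deposited values are ratios, so no level in either genotype can be given, dim probes could not be set apart, and the tissue could not be checked against its markers. No label states which channel stands on top. The knockout pool carried Cy5 on array 1 and Cy3 on array 2. Both columns were read as Cy5 over Cy3, because each of the 10 spike-in control rows (E1A) kept its sign from column to column, and array 2 was turned. This direction is likely, not settled. If array 2 is not turned, each array 2 value given here changes its sign. If both columns ran Cy3 over Cy5, all signs given here change. The targeted gene Brdt was at -0.30 and -0.43 and did not pass limma's test (adjusted p = 0.999995); where its probe lies relative to the cassette is not known here, so these values do not check the genotype labels.

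The promoters of these genes show what the mitotic and the replication groups share in sequence. RefSeq windows of 300 bases on GRCm38.p6, from 250 bases before to 50 bases after the start, were found for 39 of the 48 genes, with 2 windows for 3 of them. Motifs known from cell-cycle promoters were searched on both strands. They were the CHR element bound by the MuvB complex (TTTGAA), the CCAAT box bound by NF-Y (CCAAT), and the E2F site (TTTCCCGC, TTTGGCGC, TTTGCCGC or TTTCGCGC; matches of these forms may overlap each other). The windows printed here are those of Cdc20 and Kif11 for the mitotic genes, Mcm5 and Cdc6 for the replication genes, and Cdc7, whose ratio was lower on both arrays. Capitals mark the motif matches.
Cdc20 (chr4:118437294-118437593, - strand): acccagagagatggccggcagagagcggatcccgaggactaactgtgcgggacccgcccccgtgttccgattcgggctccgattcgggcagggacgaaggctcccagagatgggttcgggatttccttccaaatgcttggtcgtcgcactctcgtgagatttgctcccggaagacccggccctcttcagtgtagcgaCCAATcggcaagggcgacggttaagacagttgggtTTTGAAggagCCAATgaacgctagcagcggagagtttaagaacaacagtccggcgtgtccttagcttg
Kif11 (chr19:37376132-37376431, + strand): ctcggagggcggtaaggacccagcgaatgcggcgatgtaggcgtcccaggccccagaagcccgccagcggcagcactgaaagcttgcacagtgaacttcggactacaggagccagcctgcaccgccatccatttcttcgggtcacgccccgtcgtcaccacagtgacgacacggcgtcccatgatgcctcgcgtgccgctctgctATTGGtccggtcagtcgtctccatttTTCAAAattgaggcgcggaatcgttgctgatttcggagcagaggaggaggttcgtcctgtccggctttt
Mcm5 (chr8:75109259-75109558, + strand): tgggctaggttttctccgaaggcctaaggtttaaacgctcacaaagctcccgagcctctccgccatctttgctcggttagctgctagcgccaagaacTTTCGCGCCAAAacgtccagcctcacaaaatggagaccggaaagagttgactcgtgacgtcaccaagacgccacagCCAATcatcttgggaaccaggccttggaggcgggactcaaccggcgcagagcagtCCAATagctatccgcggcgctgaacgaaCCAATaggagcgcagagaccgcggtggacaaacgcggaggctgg
Cdc6 (chr11:98907901-98908200, + strand): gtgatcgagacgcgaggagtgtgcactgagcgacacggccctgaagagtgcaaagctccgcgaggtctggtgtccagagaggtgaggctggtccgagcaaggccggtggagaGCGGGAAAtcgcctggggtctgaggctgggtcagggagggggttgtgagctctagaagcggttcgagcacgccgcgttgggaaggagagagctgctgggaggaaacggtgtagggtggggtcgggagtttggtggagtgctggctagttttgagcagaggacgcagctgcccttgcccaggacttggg
Cdc7 (chr5:106964072-106964371, + strand): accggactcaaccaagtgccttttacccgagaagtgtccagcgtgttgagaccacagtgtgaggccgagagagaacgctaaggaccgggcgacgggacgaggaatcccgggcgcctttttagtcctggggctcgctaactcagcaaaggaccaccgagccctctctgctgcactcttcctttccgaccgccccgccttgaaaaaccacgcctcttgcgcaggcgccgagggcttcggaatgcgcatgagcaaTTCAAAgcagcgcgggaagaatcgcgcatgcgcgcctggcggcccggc

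The CHR letters were present in 15 of 22 mitotic promoters (68.2%), in 4 of 16 replication promoters (25%) and in 17.9% of all 32851 promoters of the table. The 2 windows of Cdc7 overlap and share their match, so that by gene the letters were present for 3 of 14 replication genes. The CCAAT letters were present in 17 of 22 mitotic promoters (77.3%), in 10 of 16 replication promoters (62.5%) and in 37.4% of all promoters. The E2F letters showed the other order, with 1 of 22 mitotic promoters (4.55%), 6 of 16 replication promoters (37.5%) and 2.26% of all promoters. The Cdc20 window holds 1 CHR match and 2 CCAAT matches, and the Kif11 window 1 of each. The Mcm5 window holds 2 overlapping E2F matches and 3 CCAAT matches, and the Cdc6 window 1 E2F match. The Cdc7 window holds 1 CHR match and neither of the other motifs. In the 66 promoters of the other mitotic genes CHR letters were present in 60.6%, and in the 59 promoters of the other replication genes E2F letters were present in 32.2%. None of the 3 motifs was found in the 4 windows of E2f1, Ccne1 and Cdkn1a. These are matches of letters and not measured binding.

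**Figure D1:**
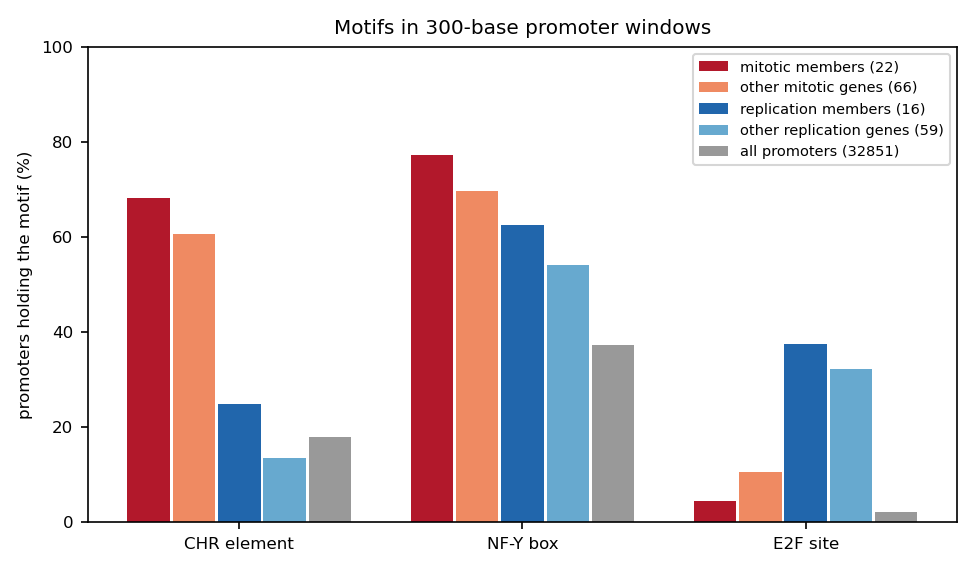
Percent of 300-base promoter windows (vertical axis) that hold each of 3 motifs, for mitotic and replication genes, the other genes of both processes, and all promoters; the number of windows is in brackets. CHR letters were present in 68.2% of mitotic and 25% of replication windows, and E2F letters in 4.55% and 37.5%.

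Mitotic genes were mostly higher in the Brdt-/- pool on array 1 and, with array 2 turned, not on array 2. On array 1, 21 of the 27 had a ratio above 0, against 44.9% of all gene rows, and 11 were past 1.5-fold higher, against 7.19% of all gene rows. On array 2, 11 of the 27 had a ratio above 0, against 57.1% of all gene rows; 0 were past 1.5-fold higher (3.52% of all gene rows) and 1, Kif11, was past 1.5-fold lower (5.67% of all gene rows). The median of the mitotic genes was 0.48 on array 1 and -0.01 on array 2, beside -0.03 and 0.03 over all gene rows. With array 2 turned, 7 of the 27 were higher on both arrays (21.6% of all gene rows) and 2 lower on both (19.5%). With array 2 not turned, 16 of the 27 were above 0 on it, against 42.8% of all gene rows. In that reading 14 were positive on both arrays, against 23.3% of all gene rows. Whether the arrays gave the group the same direction thus depends on the orientation, and the array 1 values are those of 1 pool of each genotype.

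Replication genes had a median nearer to 0 than the mitotic genes on array 1. On array 1, 12 of the 16 had a ratio above 0, against 44.9% of all gene rows. There 0 were past 1.5-fold higher (7.19% of all gene rows) and 1, Cdc6, was past 1.5-fold lower (6.63%). On array 2, 8 of the 16 were above 0, against 57.1% of all gene rows. Past 1.5-fold on it were Cdc6, higher (3.52% of all gene rows), and Cdc7, lower (5.67%). Their median was 0.14 on array 1 and 0.03 on array 2. The 5 S-phase entry regulators had medians of -0.11 and -0.08.

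None of the 48 genes passed limma's test across all gene rows (0 of 48 with Benjamini-Hochberg adjusted p under 0.05, against 0% of the 31784 gene rows; adjusted p = 0.999995 for each). At limma's unadjusted p under 0.05, 1 of the 48 passed, Cdc7, which was lower, against 2.21% of all gene rows in either direction and 1.19% lower. Past 1.5-fold on both arrays with matching signs were 0 of the 48, against 0.812% of all gene rows. At any size, 13 of the 48 were higher on both arrays (21.6% of all gene rows), 6 were lower on both (19.5%), and 29 had opposite signs (58.7%). The SD over the arrays exceeded the size of the mean in 32 of the 48. The half-width of limma's 95% interval for a member's mean ran from 0.46 to 1.91, with a median of 0.56, so a mean ratio smaller than 0.46 was not detectable even before adjustment.

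**Figure D2:**
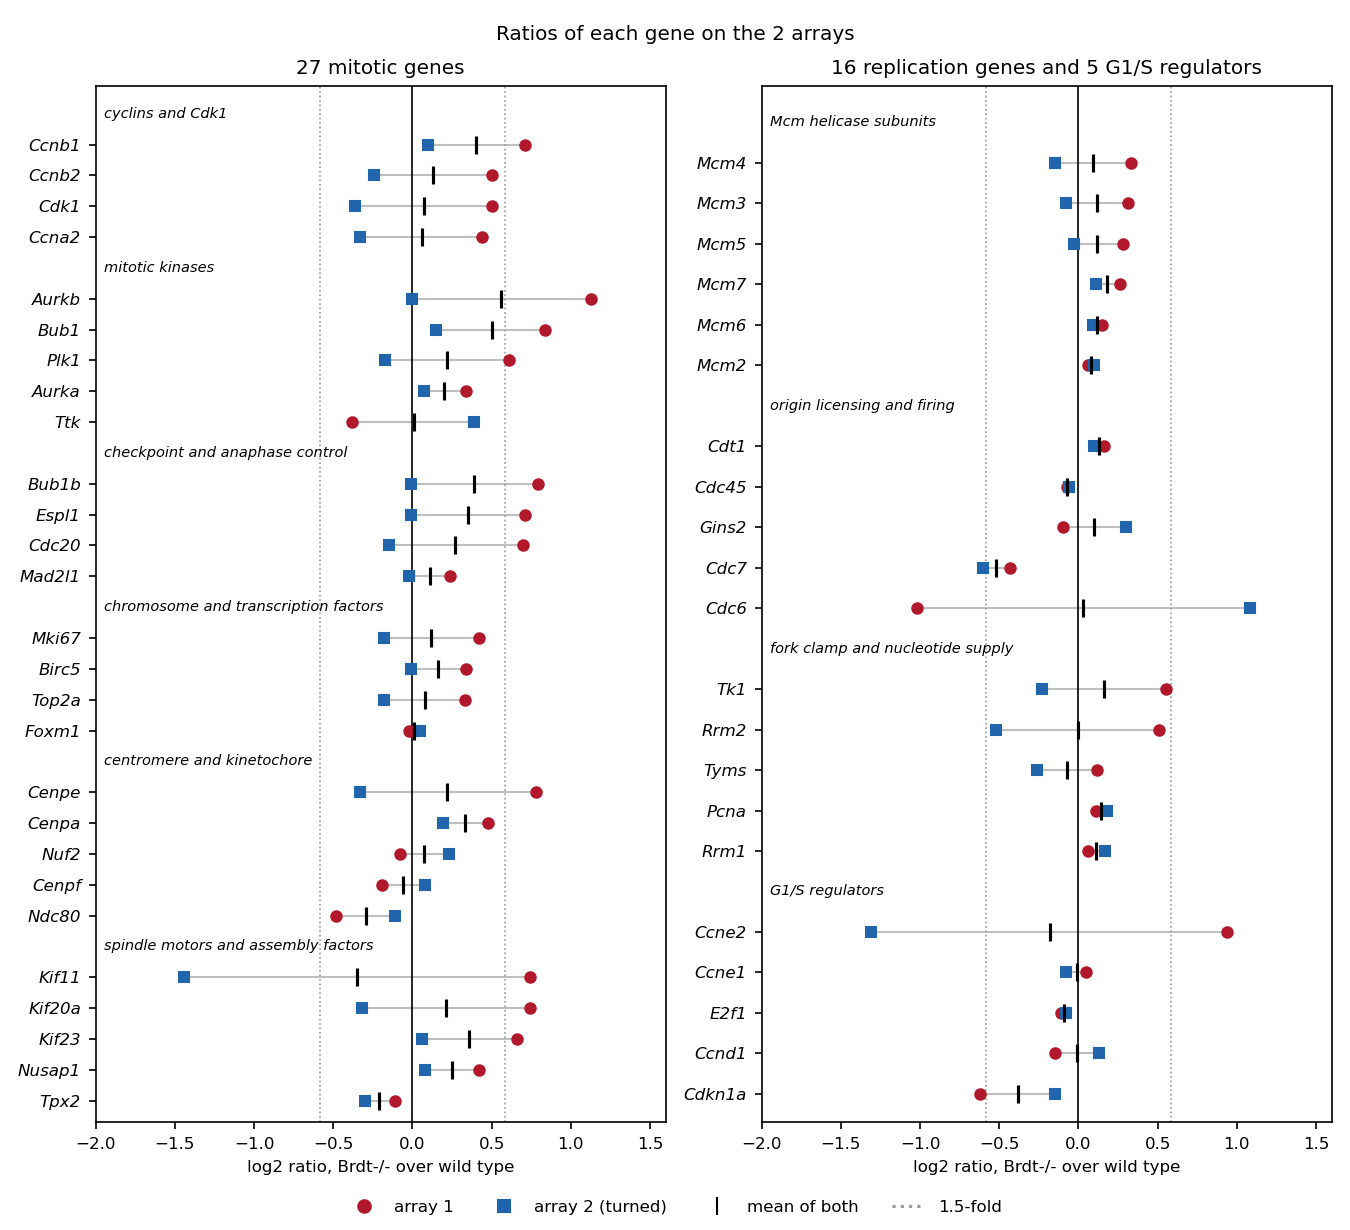
Log2 ratio of Brdt-/- over wild type (horizontal axis) for each of 27 mitotic genes (left) and 16 replication genes with 5 S-phase entry regulators (right), grouped by role. Circles are array 1, squares array 2, black ticks their mean and dotted lines 1.5-fold; on array 1 the mitotic genes centre on a median of 0.48, and on array 2 on -0.01.

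Cyclins A2, B1 and B2 and their partner Cdk1 form the kinase that drives cells into mitosis. Ccnb1, which encodes the main mitotic cyclin, was at 0.71 and 0.10, a mean of 0.40 ± 0.43 (SD, n = 2). Ccnb2 was at 0.50 and -0.24, and Cdk1 at 0.50 and -0.36. Ccna2, whose product acts in S phase and at mitotic entry, was at 0.44 and -0.33. All of these 4 genes were above 0 on array 1, and only Ccnb1 among them was above 0 on array 2.

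The mitotic kinases included the member with the highest ratio on array 1. Aurkb, the kinase of the chromosomal passenger complex that corrects faulty spindle attachments, was at 1.13 and 0.00, a mean of 0.56 ± 0.79 (SD, n = 2). Bub1, a checkpoint kinase at the kinetochore, was at 0.84 and 0.15 (mean 0.50 ± 0.49, SD, n = 2). Both values of Bub1 were positive, but they differed from each other by more than the mean. Plk1, needed for spindle poles and cytokinesis, was at 0.61 and -0.17, and Aurka, the spindle pole kinase, at 0.34 and 0.07. Ttk, the kinase that starts the spindle checkpoint, went against the others on array 1, at -0.38 and 0.39.

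Bub1b, Mad2l1, Cdc20 and Espl1, which act in the spindle checkpoint and at the onset of anaphase, were above 0 on array 1 and below 0 on array 2. Bub1b, a subunit of the mitotic checkpoint complex, was at 0.79 and -0.01. Cdc20, the activator of the anaphase-promoting complex, was at 0.70 and -0.15. Espl1, the separase that cuts cohesin, was at 0.71 and -0.01, and Mad2l1, the checkpoint protein that binds Cdc20, at 0.24 and -0.02. For these 4 genes the difference from wild type was that of array 1.

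Markers commonly used to count dividing cells had smaller ratios. Mki67, which coats mitotic chromosomes, was at 0.42 and -0.18, a mean of 0.12 ± 0.42 (SD, n = 2). Top2a, the topoisomerase that untangles sister chromatids, was at 0.33 and -0.18, and Birc5, the survivin subunit of the passenger complex, at 0.34 and -0.01. Foxm1, the transcription factor of the mitotic wave, was close to 0 on both arrays, at -0.02 and 0.05.

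Centromere and kinetochore genes did not share a direction on array 1. Cenpe, a kinetochore motor, was at 0.78 and -0.33, and Cenpa, the centromeric histone variant, at 0.48 and 0.19. Ndc80 and Nuf2 encode partner subunits that grip the microtubule. Ndc80 was at -0.48 and -0.11 and Nuf2 at -0.08 and 0.23, so the partners differed in sign on array 2. Cenpf, a large kinetochore protein of late G2, was at -0.19 and 0.08.

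Spindle motors gave the widest spread among the mitotic genes. Kif11, the motor that pushes spindle poles apart, was at 0.74 and -1.44, a mean of -0.35 ± 1.55 (SD, n = 2). Only 0.658% of all gene rows lay lower than Kif11 on array 2, while 4.98% lay higher on array 1. Kif20a and Kif23, motors of the central spindle and cytokinesis, were at 0.74 and -0.32 and at 0.66 and 0.06. Nusap1, which bundles spindle microtubules, was at 0.42 and 0.08. Tpx2, the activator of Aurora A on the spindle, was at -0.11 and -0.30, one of 2 mitotic genes, with Ndc80, that were lower on both arrays.

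The 6 subunits of the Mcm helicase, which unwinds DNA at replication forks, kept within a narrow range. Their ratios ran from 0.06 for Mcm2 to 0.33 for Mcm4 on array 1, where all 6 were above 0, and from -0.15 for Mcm4 to 0.11 for Mcm7 on array 2. Mcm7 was at 0.26 and 0.11, Mcm6 at 0.15 and 0.09 and Mcm2 at 0.06 and 0.10, and these 3 were positive on both arrays. Mcm3 was at 0.31 and -0.08, Mcm5 at 0.28 and -0.03 and Mcm4 at 0.33 and -0.15. The mean was highest for Mcm7, at 0.18 ± 0.11 (SD, n = 2), with a limma 95% interval from -0.29 to 0.66.

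Among the replication genes, those that load and fire the helicase had the smallest and the largest SD over the arrays, 0.01 for Cdc45 and 1.49 for Cdc6. Cdc7, the kinase that fires licensed origins, was at -0.43 and -0.60, a mean of -0.52 ± 0.12 (SD, n = 2), 1.43-fold lower. Its limma 95% interval had its upper end at -0.04 (unadjusted p = 0.0401, adjusted p = 0.999995), and it was the only one of the 48 whose interval left out 0. In the RefSeq annotation Cdc7 lies next but 1 to Brdt on chromosome 5, with 1 protein-coding gene between them. The part of this position beside the altered allele in its ratio was not tested. With array 2 not turned its mean was 0.08.

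Cdc6, which loads the helicase onto origins, was at -1.02 and 1.08. These values cancel to a mean of 0.03 ± 1.49 (SD, n = 2), although 97.9% of all gene rows lay above it on array 1 and 0.931% on array 2. Its loading partner Cdt1 was at 0.16 and 0.10. Cdc45 and Gins2, which complete the active helicase, were at -0.07 and -0.06 and at -0.10 and 0.30. Among the members that load and fire the helicase, none of Cdt1, Cdc45, Gins2 and Cdc7 (-0.43 and -0.60) reached the size seen for Cdc6.

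Among the genes of the fork clamp and of nucleotide supply, Pcna, the sliding clamp, was at 0.11 and 0.18. Rrm1 and Rrm2 encode the large and small subunits of ribonucleotide reductase. Rrm1 was at 0.06 and 0.17, while Rrm2, the subunit made mainly in S phase, was at 0.51 and -0.52. Tk1, thymidine kinase, was at 0.55 and -0.23, and Tyms, thymidylate synthase, at 0.12 and -0.26. Pcna and Rrm1 were thus positive on both arrays, and Rrm2, Tk1 and Tyms changed sign between the arrays.

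Of the regulators of S-phase entry, Ccne2, a cyclin E gene, was at 0.94 and -1.31, a mean of -0.18 ± 1.59 (SD, n = 2). Its relative Ccne1 was at 0.05 and -0.08. E2f1 was at -0.11 and -0.08, and Ccnd1, the cyclin that responds to growth signals, at -0.15 and 0.13. Cdkn1a, the p21 inhibitor that p53 induces, was at -0.62 and -0.15, a mean of -0.38 ± 0.34 (SD, n = 2; limma's adjusted p = 0.999995). E2f1 and Cdkn1a were the 2 regulators lower on both arrays.

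Kif11, Cdc6 and Ccne2 had large ratios of opposite sign after array 2 was turned, and so had matching signs before the turning. As deposited they were at 0.74 and 1.44, at -1.02 and -1.08, and at 0.94 and 1.31. They were the 3 members past 1.5-fold with matching signs in the columns as deposited, against 3.17% of all gene rows. Rrm2 at 0.51 and 0.52 and Ttk at -0.38 and -0.39 had nearly equal deposited values in the same way. At limma's unadjusted p under 0.05, 7 of the 48 passed as deposited, against 10.2% of all gene rows, with adjusted p-values from 0.465 to 0.973 over the members. As deposited, 22 members were positive in both columns (23.3% of all gene rows) and 7 negative in both (35.4%). Across the 48 genes, which share the same 2 hybridisations and are not replicates, array 1 and the turned array 2 had a Pearson's r of -0.45, and of -0.14 without Kif11, Cdc6 and Ccne2; over all gene rows it was -0.26. Whether a feature's dye response had a part in these values was not tested.

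**Figure D3:**
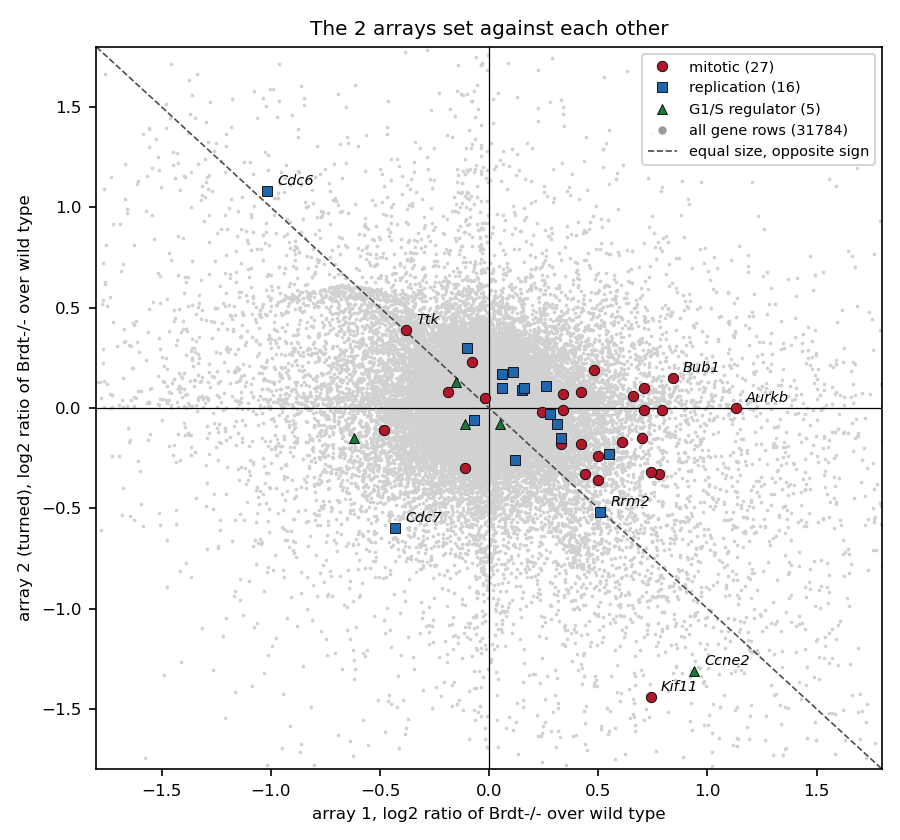
Log2 ratio of Brdt-/- over wild type on array 1 (horizontal) against array 2 (vertical) for the mitotic, replication and S-phase entry genes over all 31784 gene rows in grey; rows outside the axes are not shown. Cdc6 lies beside the dashed line of equal size and opposite sign, Ccne2 and Kif11 lie below it at the lower right, Cdc7 lies below 0 on both arrays, and most mitotic genes lie to the right of 0 and, Kif11 apart, between -0.36 and 0.39 on the vertical axis.

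The other genes of mitosis, a list of 68 that does not hold the members, were also mostly above 0 on array 1. There 53 of the 68 were above 0 (44.9% of all gene rows), 17 were past 1.5-fold higher (7.19%) and 2 past 1.5-fold lower (6.63%). On array 2, 26 were above 0 (57.1% of all gene rows), 1 was past 1.5-fold higher (3.52%) and 6 past 1.5-fold lower (5.67%). With array 2 not turned, 42 of the 68 were above 0 on it (42.8% of all gene rows) and 37 were positive on both arrays (23.3%). Their medians were 0.27 and -0.07. By limma 0 of 68 passed the adjusted threshold in either direction, and 2 passed at an unadjusted p under 0.05 (2.21% of all gene rows). These were Dlgap5, a spindle microtubule protein, at 0.59 and 0.46, and Cdc25c, the phosphatase that activates Cdk1, at -0.39 and -0.69. Spc24, a kinetochore subunit, was at 0.29 and 0.34. Iqgap3 (1.13 and -1.50), Kif18b (1.24 and -1.04), Kif4 (1.01 and -0.71) and Fam83d (0.66 and -0.53) had opposite signs, as Kif11 had.

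The other replication genes, 59 in all, had medians of 0.06 and 0.04. Above 0 were 35 on array 1 (44.9% of all gene rows) and 36 on array 2 (57.1%). Higher on both arrays were 18 (21.6% of all gene rows), and 6 were lower on both (19.5%). By limma 0 of 59 passed the adjusted threshold, and 2 passed at an unadjusted p under 0.05 (2.21% of all gene rows). Orc1, the origin recognition subunit, was at -0.74 and -0.63, and Hells, a chromatin remodeller of replicating cells, at -0.50 and -0.44. Atad2 was at -0.57 and -0.31, and Chaf1a, a histone chaperone at the fork, at 0.22 and 0.23. Ticrr, a factor of origin firing, was at 0.80 and -0.71, Pola2 of DNA polymerase alpha at -0.50 and 0.66, Clspn at 0.48 and -0.38 and Chek1, the replication checkpoint kinase, at 0.31 and -0.33. Orc1 and Hells were lower on both arrays, as Cdc7 was, while the Mcm genes were not.

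Of 24 other G1/S and arrest regulators, 0 passed limma's adjusted threshold and 0 an unadjusted p under 0.05 (2.21% of all gene rows). Their medians were 0.08 and 0.04. E2f5 was at 0.31 and 0.19, the pocket protein gene Rbl2 at -0.17 and -0.32, Rbl1 at 0.14 and 0.09 and Wee1, the kinase that restrains Cdk1, at 0.09 and 0.11. Cdk6 (0.66 and -0.50), Cdk2 (-0.31 and 0.39), the p27 inhibitor gene Cdkn1b (0.46 and -0.24) and Lin9 (0.40 and -0.10) had opposite signs. The 17 p53 target genes, which share their inducer with Cdkn1a, had medians of -0.09 and 0.01. Of them 0 passed limma's adjusted threshold and 0 an unadjusted p under 0.05 (2.21% of all gene rows). Lower on both arrays were 5 of the 17 (19.5% of all gene rows), 3 were higher on both (21.6%) and 9 had opposite signs (58.7%). Btg2, an antiproliferative gene, was at -0.27 and -0.76, Gadd45a at -0.53 and -0.18 and Tnfrsf10b at -0.09 and -0.34, the same sign as Cdkn1a. Bbc3, a cell death gene, was instead at 0.66 and 0.30. Phlda3, Ccng1, Aen and Eda2r had opposite signs on the arrays.

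Genes of immature granulocytes, marrow cells whose precursors divide, stood high on array 1, as the mitotic genes did, and some also on array 2. Of 15 such genes 14 were above 0 on array 1 (44.9% of all gene rows) and 11 on array 2 (57.1%). Their medians were 3.14 and 0.18, with ranges from -0.09 to 5.54 and from -1.50 to 1.32. On both arrays 11 of the 15 were higher (21.6% of all gene rows). Past 1.5-fold higher on both were 4 (Ltf, Cebpe, Ngp and S100a9), against 114 of the 31784 gene rows. By limma 0 of 15 passed the adjusted threshold and 2 an unadjusted p under 0.05 (2.21% of all gene rows), Ltf and Cebpe. Mpo, made by dividing granulocyte precursors, was at 3.50 and -0.45, Ms4a3 at 3.14 and 0.09, and the granule genes Ltf and Ngp at 4.23 and 1.32 and at 3.30 and 0.65. Cebpe, a factor of granulocyte maturation, averaged 1.83 ± 0.88 (SD, n = 2), and S100a9 was at 4.36 and 0.73. Prtn3 was at 1.37 and -1.50 and Ctsg at 2.96 and -0.09, and Elane, a defining gene of promyelocytes, was near 0 at -0.09 and -0.15. As a list, the erythroid genes did not follow the mitotic genes, with medians of -0.06 and 0.98. Above 0 were 5 of 11 on array 1 (44.9% of all gene rows) and 11 of 11 on array 2 (57.1%). On array 1, 2 were past 1.5-fold higher (7.19% of all gene rows) and 1 past 1.5-fold lower (6.63%). On array 2, 6 were past 1.5-fold higher (3.52%), and 1 was so on both arrays (114 of 31784 gene rows). Limma's adjusted threshold was passed by 0 of 11, and an unadjusted p under 0.05 by 1 (2.21% of all gene rows). The part of blood or marrow cells in the array 1 ratios of the mitotic genes was not tested.

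**Figure D4:**
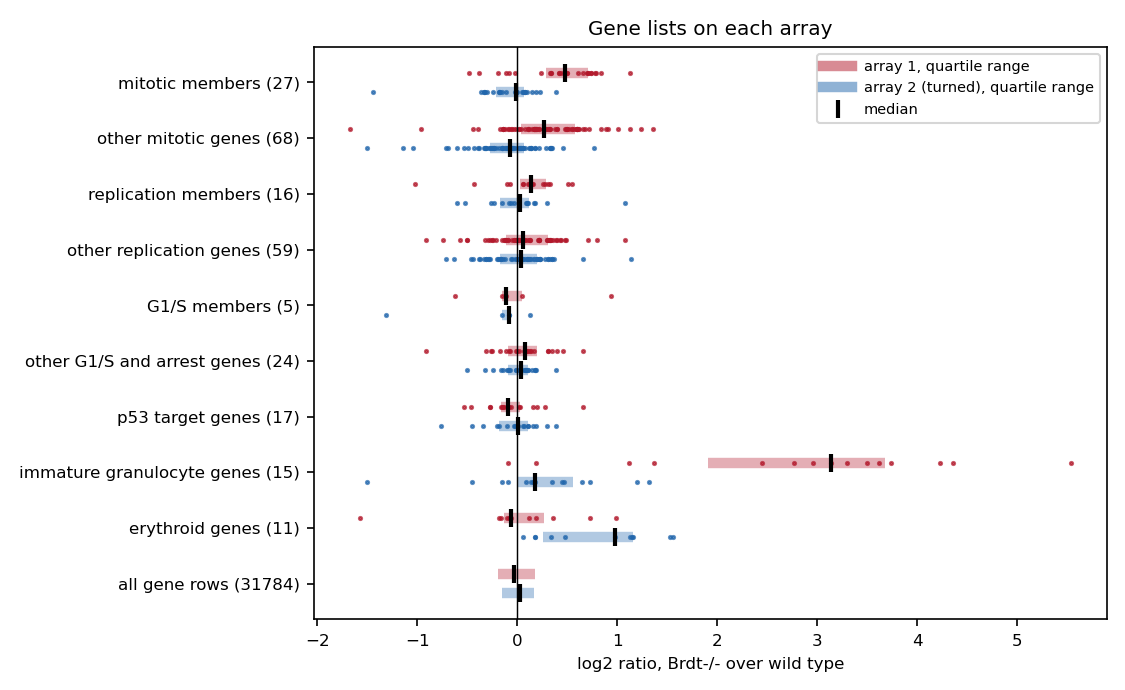
Log2 ratio of Brdt-/- over wild type (horizontal axis) for gene lists on array 1 (red) and array 2 (blue), with points for genes, bars for the quartile range and black ticks for the median; all gene rows are shown without points. The mitotic lists have medians of 0.48 and 0.27 on array 1, the immature granulocyte list one of 3.14, and the replication lists lie near 0 on both arrays.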

How the data were processed

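Pituitary RNA of 2 Brdt-/- and 2 wild-type pools was measured on 2 two-colour Agilent arrays; labelling used a low-input kit, per the labels' protocols. The deposited values are scored here as signed linear fold changes, with 1 row for each gene name; this scale follows from the values, none of which lies between -1 and 1. The sources used here do not give scanner settings, normalization or how probes were joined. Of 31840 rows, 56 control rows were left out. Values were put on a log2 scale (log2 of the fold size, times its sign), and array 2 was turned. The test of each gene against 0 used limma 3.58.1 under R 4.3.3 (intercept only, 1 residual degree of freedom, two-sided), adjusted by Benjamini-Hochberg over all 31784 gene rows, threshold 0.05, after a test on simulated data. A sign-flip permutation of 2 arrays cannot go below p = 0.5. The number of arrays limits the precision.

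The members, lists, orientation and role groups were chosen with earlier results of these data known. All 48 members are named; of each other list, up to 4 genes with the largest smaller ratio were named among those of the same sign on both turned arrays, and up to 4 among those of opposite sign. A gene that this rule takes is not reported here. Of 232 genes of other lists 230 had a row, 12 of them under an older symbol of RefSeq GRCm38.p6. Promoter sequences are RefSeq's. Alternatives were the orientation, centring, scaling, single arrays, fold thresholds, protein-coding symbols and the ordinary statistic.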

Additional observations from a re-analysis of the deposited data

How the results depend on the processing

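The count of genes passing limma's adjusted threshold was 0 with array 2 not turned, with each array centred, with array 2 scaled to the SD of array 1, over protein-coding symbols and with the ordinary statistic, and 1 at an unadjusted p, a looser threshold by construction. The count past 1.5-fold on both arrays with matching signs was 0 when centred, scaled, over protein-coding symbols and at 2-fold, 1 at 1.2-fold, and 3 with array 2 not turned. On single arrays, where no second array has to match, it was 4 (array 2, where 9.19% of all gene rows were past it) and 14 (array 1, 13.8%). The mitotic median of the mean ratios, 0.16, ranged from -0.01 (array 2 alone) to 0.48 (array 1 alone) and was 0.30 with array 2 not turned. The replication median, 0.11, ranged from 0.03 to 0.14 on single arrays and was 0.06 with array 2 not turned and 0.05 as a mean over members. With array 2 not turned, 15 of the 48 means changed sign. The limma test is paired by array, so no replicate block could be added to it. Limma could not be fitted on a single array, which leaves no residual degrees of freedom. Signal over background is unknown.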

Other observations

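Other cell types that a dissected pituitary can hold were listed beside the dividing cells. The 11 pituitary stem cell genes had medians of 0.39 and 0.07 on arrays 1 and 2. Of them 7 and 6 were above 0, against 44.9% and 57.1% of all gene rows. The stem cell factor Sox2 was at 0.45 and 0.13, Cd44 at 1.25 and 0.11 and S100b at 0.40 and -0.66. Endothelial genes stayed near 0, with medians of -0.04 and 0.12 over 8 genes and Kdr at -0.11 and -0.14. Lymphocyte precursor genes had medians of -0.11 and 0.01 over 10 genes, with Rag1 at 0.49 and 0.57 and Pax5 at -0.82 and -0.24. The anterior lobe hormone genes had medians of 0.29 and -0.25 over 7 genes, with Prl at 0.63 and -0.58. By limma 0 genes of these 4 lists passed the adjusted threshold. At an unadjusted p under 0.05 (2.21% of all gene rows), 1 passed among the lymphocyte precursor genes (Rag1). Among the hormone genes 1 passed it (Pomc, at -0.63 and -0.96).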
